A study of Mus musculus with 2 samples.

Results

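The cytochrome P450 (Cyp) family was followed through early and late culture of mouse hepatoblasts, the fetal progenitors of hepatocytes and bile duct cells. Members were all gene probes of the array whose name starts with Cyp and a digit, which gave 118 probes for 82 genes of the 27376 gene names on the array. The rule used no measured value. Both arrays hold 1 spot of each member probe, and no member spot was saturated or an outlier.

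P450 enzymes are heme proteins that insert an oxygen atom into their substrate. Those of the endoplasmic reticulum take electrons from the reductase Por, and those of mitochondria from ferredoxin. In adult liver they clear drugs and other foreign compounds, turn cholesterol into bile acids, and oxidise fatty acids, steroids, retinoids and vitamin D, and many of them come on only as hepatocytes mature.

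The cells were expandable hepatoblasts (eHBs) of strain C57BL/6. One culture was taken at passage 5 and another at passage 20, with 1 array for each passage, and per the labels they came from separate experiments, so passage and experiment cannot be told apart. Both cultures grew in DMEM/F12 with insulin, transferrin and selenite, 5 mM nicotinamide, phospho-ascorbic acid and albumin. The medium also held 10 ng/ml EGF, 3 μM CHIR99021 (a GSK3 inhibitor), 2 μM E-616452 (which blocks the type I receptor of TGF-beta), and the lipids LPA at 5 μM and S1P at 0.5 μM. The surface was coated with Matrigel or laminin, and which array had which coating is not given in the labels. No uncultured liver or mature hepatocyte array stands beside them in the samples used here.

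A level here is the log2 signal of a probe after subtraction of its array's 75th percentile, which lay at a signal of 1085 at passage 5 and 853 at passage 20. A difference is the level at passage 20 minus the level at passage 5. With 1 array per passage a difference compares 2 arrays, no test over replicates is possible, and none is given. The error printed with a difference is the 1 SD that the scanner software assigns to the spots, which is mostly a preset 10% of the signal. It leaves out the spread between cultures and RNA preparations. A gene counts as measured where its probe was well above background on 1 array or both. It was called higher or lower from a difference of 2-fold. Where only 1 array was above background, the brighter level is set against a stand-in for the dim one. The stand-in is the dim probe's own level or the lowest level above background on that array, whichever is higher. Set against that lowest level, the difference is a bound and is written as at least so many fold. Set against the dim probe's own level, as for Cyp2c65 and Fabp2, it is the measured difference and no bound.

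The labelled cell type was checked on marker genes. Of 6 hepatoblast markers 5 were measured, with Afp at 2.55 and 2.64, Hnf4a at 2.24 and 2.03 and Foxa2 at 4.67 and 4.56 at passages 5 and 20, while Dlk1 was above background on neither array. Gpc3 was at least 9.49-fold lower and Epcam 2.24-fold lower at passage 20. Of 8 mature hepatocyte markers only Apoa1 was measured, at passage 5 alone, and Alb and Ttr were above background on neither array. Of 6 biliary markers 5 were measured, among them Krt19 at 7.67 and 7.16 and Spp1, which was 6.83-fold higher at passage 20. The 5 intestinal markers were all measured, among them Cdx2 at 4.32 and 3.11, Vil1 at 5.67 and 5.45 and Lgals4 at 6.81 and 5.54. All 4 endothelial markers stayed at background, as did 4 of 5 mesenchymal markers, 2 of 4 leukocyte markers and 2 of the 3 erythroid markers on the array. The fifth mesenchymal marker, Dcn, had a level of 0.82 at passage 5 and was at least 15.9-fold lower at passage 20, and the summed level of that list, with the 75th percentile set to 1, was 1.86 and 0.188. The second Dcn probe was above background on neither array. The erythroid marker Tfr2 was at least 3.54-fold lower, and the summed levels of the erythroid list were 0.459 and 0.230. The leukocyte markers Cd68 and Csf1r lay within 2-fold. The arrays also stand apart in sex-linked genes, with Xist 36.5-fold higher and Ddx3y and Eif2s3y at least 21.4-fold and 20.5-fold lower at passage 20. The part of these genes in the P450 values was not tested.

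Most P450 genes gave no usable signal. Of the 82 members 28 (34.1%) were measured, against 58.8% of the 20070 named genes on the array. The passage 5 array had 28 members above background, against 57.0% of all named genes, and the passage 20 array 20 of the same 28, against 55.4%. No member was above background at passage 20 alone, while 8 (9.76%) were so at passage 5 alone; among all named genes these shares were 1.82% and 3.41%. The 54 silent members include most of the P450s by which mature liver is known: Cyp3a11, Cyp2e1 and Cyp1a2 of drug clearance, Cyp7a1, Cyp7b1, Cyp8b1 and Cyp27a1 of bile acid synthesis, all 4 Cyp2a genes and all 5 Cyp2j genes. For these genes the arrays give an upper limit only, and a low level of RNA would not be detectable. Silent here means only not flagged as well above background. Cyp26b1, counted as silent, had a signal of 121 at passage 5, over the 111 of Cyp2c29, which counts as measured. In total RNA from a whole culture, fewer cells that express a gene and less RNA per cell cannot be told apart.

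**Figure D1:**
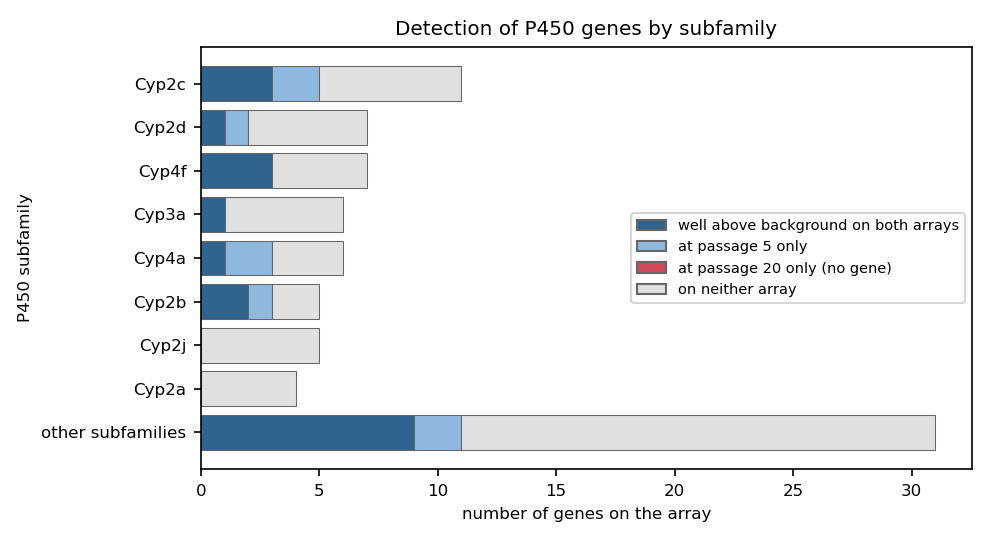
Number of P450 genes on the array (horizontal axis) in each subfamily (vertical axis), split by whether both arrays, the passage 5 array alone or neither array had the gene's probe well above background. Subfamilies with under 4 genes are pooled in the lowest bar; no gene was above background at passage 20 only, and the Cyp2j and Cyp2a genes were above it on neither array.

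Among the 28 measured members 1 was at least 2-fold higher at passage 20 (3.57%), against 3.26% of the 11799 measured named genes. At least 2-fold lower were 6 members (21.4%), against 5.73% of all measured genes. Over the 20 members above background on both arrays, 1 was higher (5.0%) and 4 were lower (20.0%), where all genes had 2.47% higher and 3.97% lower. The median difference of these 20 members was -0.19 against 0.08 for all genes, and 9 lay above and 11 below 0. Scaling by the median of all probes moved the all-gene median from 0.07 to -0.24 and gave 1 higher and 10 lower members. All named genes then had 193 higher and 1126 lower, against 385 and 676 in the main setting. Scaling by external spike-in RNA moved the all-gene median to -0.15 and gave 1 higher and 9 lower members. All named genes then had 230 higher and 969 lower. In 12 of the 20 members the difference exceeded 2 software errors. The share of all genes past this mark was not computed, so the count does not set the members apart from other genes. The software error leaves out the spread between cultures.

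The probes behind the 7 calls lie, in mm9, at chr9:57551535-57551594 (Cyp1a1), chr19:39168290-39168349 (Cyp2c65), chr19:39261183-39261242 (Cyp2c66) and chr4:115005343-115005402 (Cyp4a12a) on the plus strand. Those of Cyp2s1 at chr7:26587504-26587563, Cyp4b1 at chr4:115297527-115297586 and Cyp4f14 at chr17:33042214-33042273 are on the minus strand. None of the 7 spans an exon junction.

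**Figure D2:**
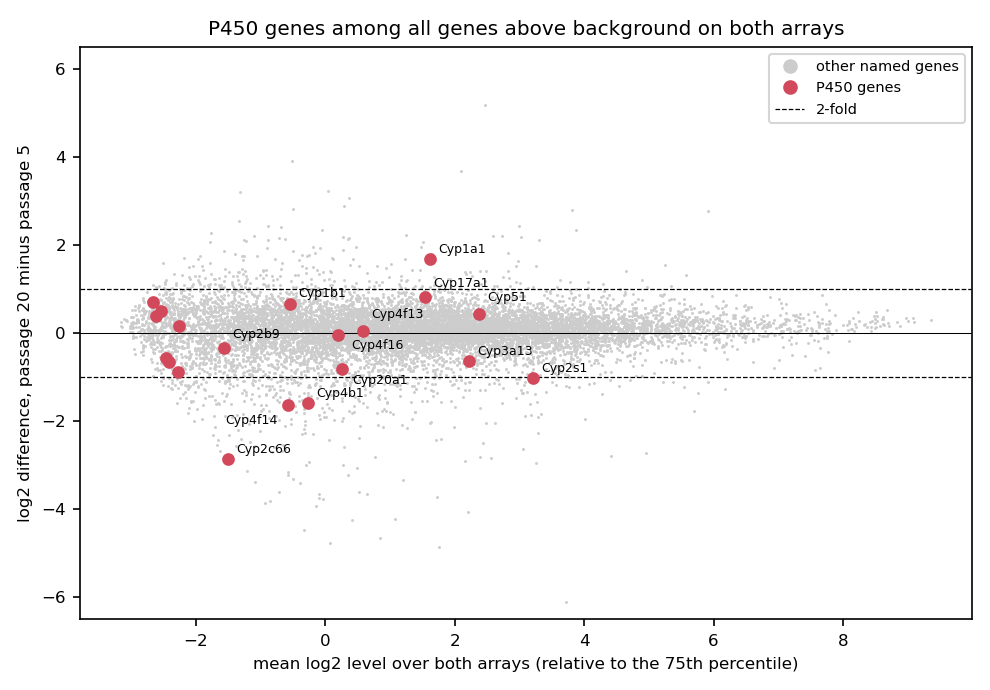
Log2 difference, passage 20 minus passage 5 (vertical axis), against the mean log2 level over both arrays (horizontal axis) for named genes above background on both arrays; each point is a gene. The 20 P450 genes are drawn in red, those with a mean level above -2 are named, and dashed lines mark 2-fold: Cyp1a1 lies above the upper line and Cyp2s1, Cyp4b1, Cyp4f14 and Cyp2c66 below the lower one.

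The enzymes of foreign compounds form the largest group. Of its 42 genes on the array 14 were measured, and 10 of these lay within 2-fold. In this group 3 were lower and 1 was higher, against 5.73% and 3.26% of all measured genes. The one that was higher is Cyp1a1, the hydroxylase of polycyclic aromatic compounds that the aryl hydrocarbon receptor (AhR) switches on. Its level was 0.78 at passage 5 and 2.46 at passage 20 (signals of 1860 and 4693), a difference of 1.68 ± 0.20 or 3.21-fold. Cyp1b1, another AhR-driven member, had levels of -0.89 and -0.22 and so stood 1.59-fold higher at passage 20, within the 2-fold range. Its second probe was above background on neither array. Cyp1a2, which lies next to Cyp1a1 on chromosome 9, was above background on neither array.

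The Cyp1a1 promoter is shown because its gene alone among the members was higher. The RefSeq window of 250 bases before to 50 after the start lies at chr9:57697363-57697662 on the plus strand of GRCm38.p6. Capitals mark the AhR core GCGTG, whose first base is at -54 from the start, and the TATA box TATAAA, at -30.
Cyp1a1 promoter: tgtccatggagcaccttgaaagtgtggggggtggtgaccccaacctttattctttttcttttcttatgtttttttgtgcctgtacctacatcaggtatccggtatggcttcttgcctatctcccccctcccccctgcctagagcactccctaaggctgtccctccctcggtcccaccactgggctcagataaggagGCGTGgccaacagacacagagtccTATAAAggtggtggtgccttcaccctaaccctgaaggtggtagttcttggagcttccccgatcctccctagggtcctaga
The AhR core is a short word: searched on both strands, it occurs in 32.4% of 32851 promoters of this length and in 15 of the 60 member genes with a promoter in the table (25.0%), including 10 of the 24 measured ones. Cyp1b1, Cyp4f14 and Cyp51 hold it too. The AhR sites best known for Cyp1a1 lie in an enhancer further upstream than this window. TATAAA occurs in 13.6% of all promoters and in 27 member genes (45.0%).

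The receptor's own RNA and other AhR-responsive genes were read beside it. Ahr had levels of 2.21 and 3.12, which made it 1.88-fold higher at passage 20 and so within the 2-fold range, and its partner Arnt differed by 0.15. The repressor Ahrr was above background on neither array. Besides Ahrr, 4 other AhR targets were on the array and 3 were measured. Gsta1, a glutathione transferase, was 2.34-fold lower at passage 20. Nqo1, a quinone reductase, and Tiparp, an ADP-ribosyl transferase that represses AhR, lay within 2-fold, at -0.97 and -0.88. The differences of Cyp1a1 and of these 3 genes therefore have opposite signs.

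The largest P450 differences were those of Cyp2c65 and Cyp2c66, neighbours on chromosome 19 whose enzymes oxidise arachidonic acid and which are known from the gut. Cyp2c65 had a level of 0.23 at passage 5 (signal 1268) and was not well above background at passage 20 (level -3.01, signal 106). By its own dim signal it was 9.44-fold lower (-3.24 ± 0.36), which is the measured difference and no bound. Cyp2c66 had levels of -0.07 and -2.94, a difference of -2.87 ± 0.33 or 7.30-fold, and at passage 20 its signal of 111 was close to the lowest that counts as above background (94.6). With normexp background correction the difference of Cyp2c65 was -2.02 in place of -3.24, and that of Cyp2c66 -1.74 in place of -2.87, both still past 2-fold. The Cyp2c66 probe is annotated to Cyp2c65 as well, whereas the Cyp2c65 probe is annotated to that gene alone, so RNA of Cyp2c65 can add to the Cyp2c66 value.

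Their promoters are shown because the genes sit side by side and were both lower. They lie at chr19:39060756-39061055 (Cyp2c65) and chr19:39113648-39113947 (Cyp2c66), both on the plus strand of GRCm38.p6, as RefSeq gives them. Capitals mark the HNF4 motif CAAAGTCCA in Cyp2c65, whose first base is at -116 from the start, and the bases aligned with it in Cyp2c66.
Cyp2c65 promoter: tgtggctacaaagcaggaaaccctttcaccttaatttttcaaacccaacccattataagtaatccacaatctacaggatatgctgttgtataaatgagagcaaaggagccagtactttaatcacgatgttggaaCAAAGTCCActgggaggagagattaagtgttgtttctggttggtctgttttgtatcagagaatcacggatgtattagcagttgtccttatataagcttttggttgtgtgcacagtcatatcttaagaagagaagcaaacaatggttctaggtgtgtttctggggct
Cyp2c66 promoter: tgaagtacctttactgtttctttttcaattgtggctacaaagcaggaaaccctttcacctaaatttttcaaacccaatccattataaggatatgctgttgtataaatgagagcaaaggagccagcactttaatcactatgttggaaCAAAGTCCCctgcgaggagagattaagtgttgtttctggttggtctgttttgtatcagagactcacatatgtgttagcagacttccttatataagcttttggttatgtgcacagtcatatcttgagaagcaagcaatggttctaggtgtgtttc
Over 271 aligned bases the promoters share 256 (94.5%). In the window of 9 bases they share 8, and the substitution is A9C, with the Cyp2c65 base first and positions counted from 1 at the window's 5′ end. The motif, searched on both strands, is in 0.475% of all promoters and in 7 of the 60 member genes (11.7%): Cyp2c65, Cyp2c40, Cyp2c70, Cyp3a11, Cyp3a16, Cyp3a41a and Cyp8b1. Hnf4a itself differed by -0.21. The CDX motif TTTATGG is in neither promoter shown, and occurs in 2.75% of all promoters and in 2 members, Cyp2b10 and Cyp2b19.

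Of 5 intestinal marker genes 3 were lower at passage 20 as well, against 5.73% of all measured genes. Another 1 was higher, against 3.26% of all measured genes, and 1 lay within 2-fold. All 5 were measured: the transcription factor Cdx2 had levels of 4.32 and 3.11 (2.32-fold lower at passage 20), and the lectin Lgals4 was 2.42-fold lower. The fatty acid binding protein Fabp2 was 2.61-fold lower and not well above background at passage 20. The second Fabp2 probe was above background on neither array. Vil1 was within 2-fold (-0.23). The stem cell marker Lgr5 was 2.24-fold higher by the probe used (1.16) but not by its other probe (-0.73). The summed level of the 5 markers was 184 at passage 5 and 99.5 at passage 20. Lgals4, whose level was the highest of the 5 on both arrays, weighs most in it. The sums at passages 5 and 20 were 37.5 and 34.2 for the hepatoblast list and 241 and 311 for the biliary list. The part of the intestinal markers in the Cyp2c values was not tested.

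The other Cyp2c genes gave smaller or undefined differences. Cyp2c40 had levels of -1.83 and -2.71, a difference of -0.89 ± 0.32, by a probe that also fits Cyp2c67, Cyp2c68 and Cyp2c69. It passed 2-fold under 5 of 11 other settings. The second Cyp2c40 probe, shared with Cyp2c68, was above background on neither array. Cyp2c37 had levels of -2.34 and -2.17, and its second probe, shared with Cyp2c50, was above background at passage 20 alone, at least 1.60-fold higher. Cyp2c29 was above background at passage 5 alone and so dim there (-3.29) that no fold can be given. The remaining Cyp2c genes (Cyp2c38, Cyp2c39, Cyp2c44, Cyp2c54, Cyp2c55 and Cyp2c70) were silent on both arrays.

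Cyp2s1, a P450 known from epithelia outside the liver, was the other lower gene of this group. Its levels were 3.73 and 2.70 (signals of 14380 and 5548), a difference of -1.03 ± 0.20 or 2.04-fold. The threshold lies within 1 error of this value, yet no alternative setting brought it under 2-fold (range -1.34 to -1.02 over 11). Its second probe, which starts further along the transcript, was above background on neither array. Cyp3a13 was the only one of 6 Cyp3a genes measured, and its levels of 2.54 and 1.90 differed by -0.65 ± 0.20.

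For the Cyp2b and Cyp2d genes, clusters of near-identical copies, the probes limit what can be said. Cyp2b9, an enzyme known from female liver, had levels of -1.40 and -1.74 (-0.34 ± 0.25) by a probe that also fits Cyp2b10. Cyp2b13 had levels of -3.02 and -2.31 (0.71 ± 0.37) by a probe that fits Cyp2b10, Cyp2b23 and Cyp2b9 too. Cyp2b10, the classical target of the receptor CAR, was just above background at passage 5 (-3.26) and below it at passage 20. Cyp2d9 had levels of -2.18 and -2.75 (-0.57 ± 0.37), by a probe shared with Cyp2d11, and Cyp2d26 was above background at passage 5 alone, with a bound of -0.06. None of these 5 genes reached 2-fold, and the differences measured on both arrays were below 2 software errors. Cyp2b9, Cyp2b13, Cyp2b10 and Cyp2d9 each have a second probe, which was above background on neither array. Those of Cyp2b9 and Cyp2b13 are annotated to their own gene alone.

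Probes of such genes are shown to let the shared stretches be looked up. The positions are those of the files in mm9, and each probe lies in exons of its gene; whether in coding sequence or UTR was not placed here. The Cyp2b13 probe (chr7:26873757-26880713, plus strand) spans an exon junction, as does the Cyp4a12b probe (chr4:115106662-115107596, plus strand), while the Cyp2d9 probe (chr15:82286799-82286858, plus strand), the second Cyp2c37 probe (chr19:40076439-40076498, plus strand) and the second Cyp4f16 probe (chr17:32682033-32682092, plus strand) each lie within 1 exon.
Cyp2b13 probe: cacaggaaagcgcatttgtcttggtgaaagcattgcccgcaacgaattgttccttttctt
Cyp2d9 probe: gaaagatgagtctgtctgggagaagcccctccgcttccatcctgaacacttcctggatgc
Cyp4a12b probe: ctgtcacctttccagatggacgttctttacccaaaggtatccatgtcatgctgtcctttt
Cyp2c37 second probe: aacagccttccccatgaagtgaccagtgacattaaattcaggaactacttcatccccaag
Cyp4f16 second probe: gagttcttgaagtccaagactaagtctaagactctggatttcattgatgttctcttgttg
In all, 22 of the 118 member probes are annotated to another gene as well, and 8 of the 28 measured genes rest on such a probe.

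**Figure D3:**
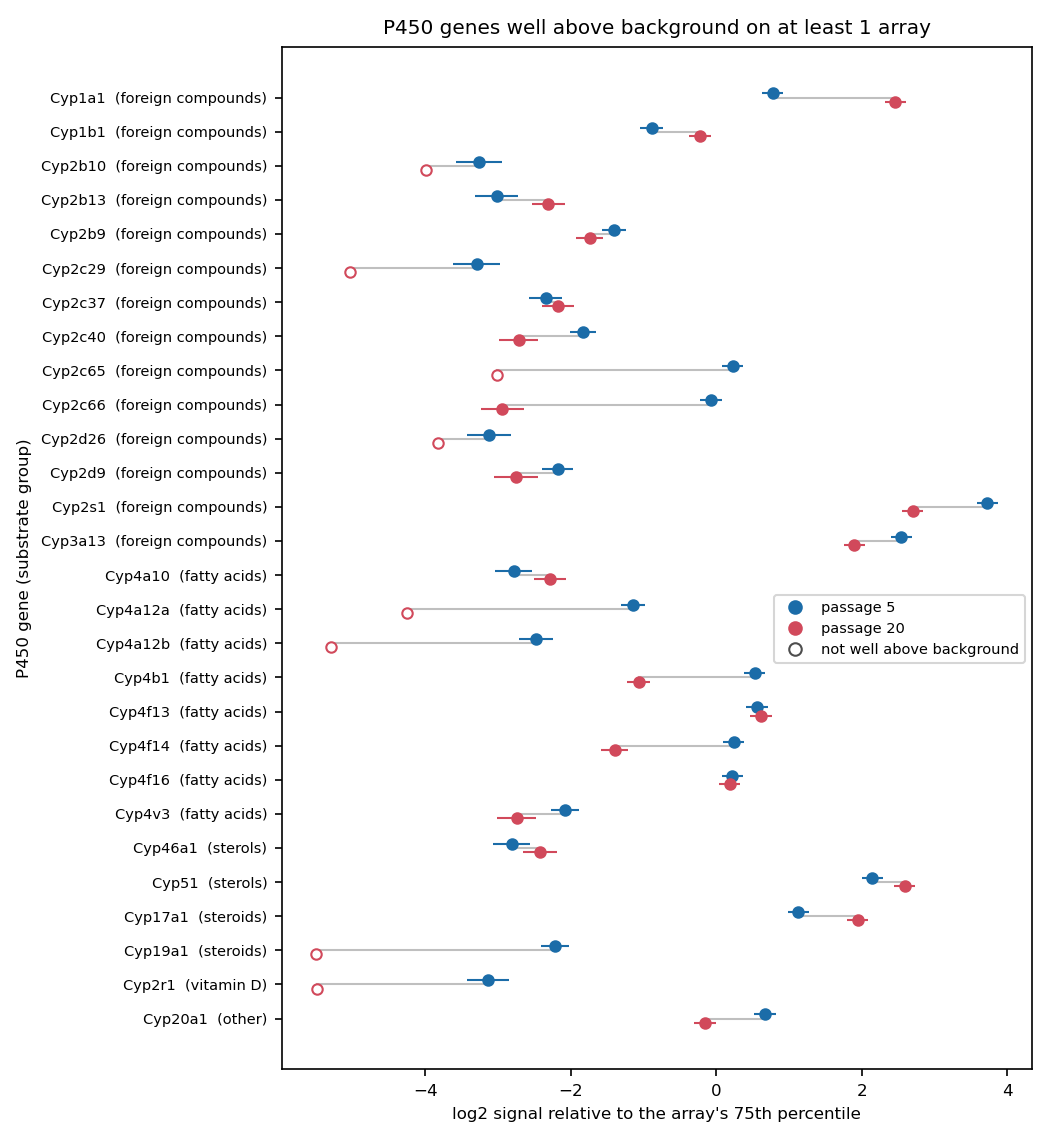
Log2 signal relative to the array's 75th percentile (horizontal axis) for each of the 28 measured P450 genes (vertical axis, with substrate group), at passage 5 in blue and at passage 20 in red; bars are the 1 SD software error and open circles mark a gene not well above background. The open circles all lie at passage 20, the blue point lies to the right of the red one for Cyp2c65, Cyp2c66, Cyp4a12a, Cyp4b1 and Cyp4f14, and Cyp1a1 shows the reverse; levels of different genes come from different probes and are not comparable.

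The fatty acid P450s of families such as Cyp4 hold the other lower calls. Of 22 genes on the array 8 were measured, all of them Cyp4 genes. Of these 3 were lower and none higher, against 5.73% and 3.26% of all measured genes, and 5 lay within 2-fold. Cyp4b1, which oxidises short fatty acids and foreign compounds, had levels of 0.53 and -1.06, a difference of -1.60 ± 0.22 or 3.02-fold; its probe also fits the pseudogene Cyp4b1-ps2. Cyp4f14, which inactivates leukotriene B4, had levels of 0.24 and -1.40 and was 3.11-fold lower (-1.64 ± 0.23). Cyp4a12a, a fatty acid hydroxylase known from male liver and kidney, had a level of -1.14 at passage 5 and was not well above background at passage 20 (-4.25), hence at least 4.10-fold lower; normexp background correction brought this bound from -2.03 to -1.32. The probes of Cyp4a12a and Cyp4a12b each fit both genes; Cyp4a12b (-2.47 at passage 5) has a bound of -0.70.

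The other Cyp4 genes lay within 2-fold. Cyp4f13 (0.56 and 0.62) and Cyp4f16 (0.22 and 0.19) share the cluster of Cyp4f14 on chromosome 17 and differed by 0.05 ± 0.21 and -0.04 ± 0.21, although the second Cyp4f16 probe, shared with Cyp4f37, gave -0.84. Cyp4a10, a target of the receptor PPARα, had levels of -2.78 and -2.28 (0.50 ± 0.34) by the probe used, whereas another of its 4 probes was above background at passage 5 alone, with a bound of -1.08. It is the one member whose probes have opposite signs. Cyp4v3 had levels of -2.08 and -2.74 (-0.66 ± 0.33). Ppara was above background on neither array.

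Taken by position, P450 genes with under 1 Mb between neighbours form 8 clusters of at least 3 genes. The Cyp2c cluster of 10 genes on chromosome 19 held 5 measured genes and 2 lower ones, and the Cyp4a, Cyp4b1 and Cyp4x1 cluster of 8 on chromosome 4 held 4 measured and 2 lower. The Cyp2b, Cyp2a and Cyp2s1 cluster of 12 on chromosome 7 had 4 measured genes, all at 1 end, with Cyp2s1 lower. The Cyp4f cluster of 6 on chromosome 17 had 3 measured genes and 1 lower, and the Cyp2d cluster of 7 on chromosome 15 had 2 measured and none called. On chromosome 9, Cyp1a1 was the only one measured of 3 genes, beside Cyp1a2 and Cyp11a1. The 5 Cyp3a genes on chromosome 5 and the 5 Cyp2j genes on chromosome 4 were silent throughout. Of all measured named genes 5.73% were lower and 3.26% higher. Clustered genes are not all read separately: the Cyp2c66 probe also fits Cyp2c65, and the probes of Cyp4a12a and Cyp4a12b each fit both genes. On chromosome 7 the Cyp2b13 probe also fits Cyp2b10, Cyp2b23 and Cyp2b9, and the Cyp2b9 probe also fits Cyp2b10.

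**Figure D4:**
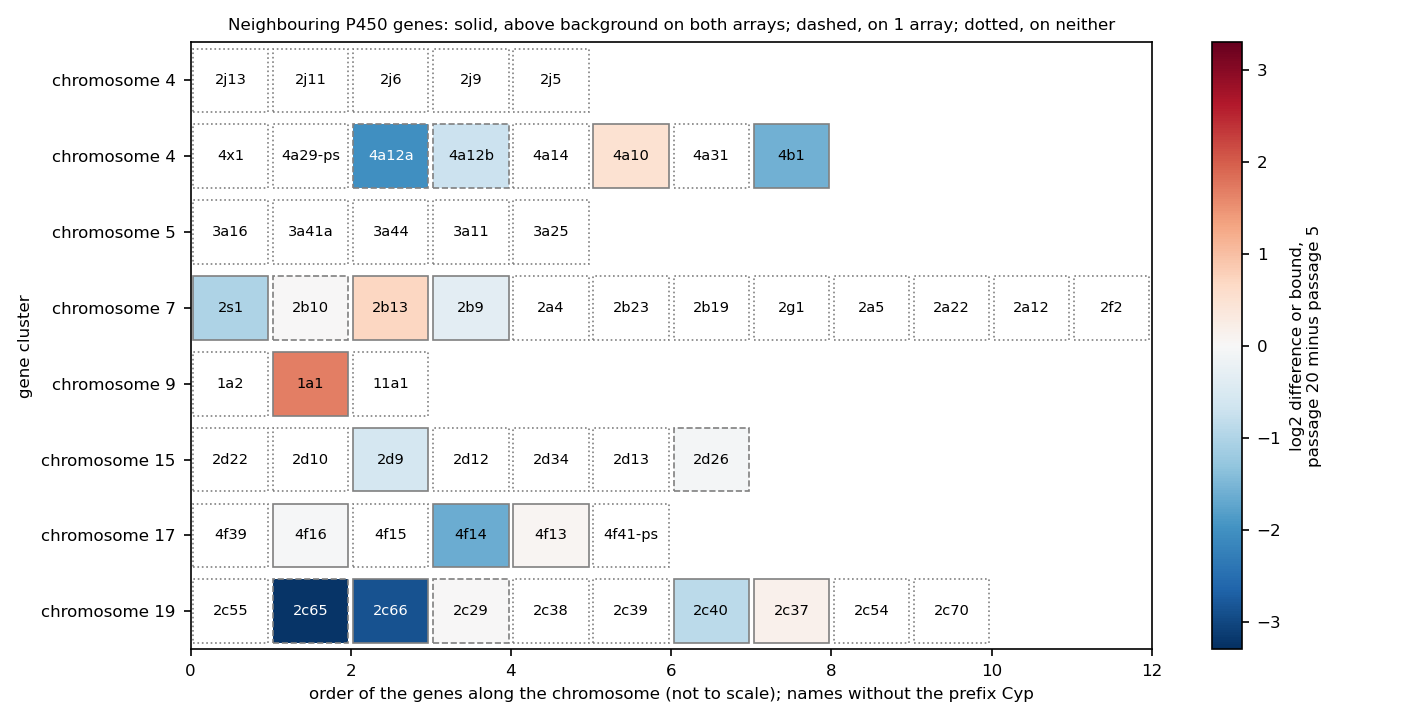
P450 genes in their order along each chromosome, in 8 clusters (vertical axis) and by rank within the cluster (horizontal axis, not to scale). Colour gives the log2 difference or bound, passage 20 minus passage 5, white boxes with dotted edges are genes above background on neither array, and the darkest pair, Cyp2c65 and Cyp2c66, lies side by side on chromosome 19.

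Sterol P450s did not reach 2-fold. Of 7 genes of sterol and bile acid metabolism on the array 2 were measured. Cyp51, the lanosterol demethylase of cholesterol synthesis, had levels of 2.15 and 2.59, a difference of 0.44 ± 0.20, and its 3 probes gave 0.44, 0.55 and 0.65. The 18 other genes of cholesterol synthesis were all measured and all lay within 2-fold by the probes used, with a median of 0.31, although 1 of the 4 Nsdhl probes gave 1.16; Msmo1, which acts close to Cyp51 in the pathway, had levels of 6.24 and 6.82. Cyp46a1, the cholesterol hydroxylase known from neurons, had levels of -2.81 and -2.42, which differ by 0.39 ± 0.35. None of the P450s that make bile acids in mature liver was measured. Among 10 other bile acid genes 7 were measured. Baat, which joins bile acids to taurine and glycine, was at least 5.20-fold higher at passage 20 (level -0.94 there). Its second probe was above background on neither array. The peroxisomal oxidase Acox2 was 3.03-fold lower (-0.86 and -2.46).

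Both measured steroid P450s are known from gonads. Cyp17a1, a steroid hydroxylase and lyase, had levels of 1.13 and 1.95 (signals of 2378 and 3285), a difference of 0.81 ± 0.20 or 1.76-fold, which kept under 2-fold in all 11 other settings. Cyp19a1, the aromatase that makes estrogens, had a level of -2.22 at passage 5 and was not well above background at passage 20, at least 1.94-fold lower. It passed 2-fold in 6 of 10 other settings, and its second probe was above background on neither array. Cyp11a1, Cyp11b2 and Cyp21a1 were silent on both arrays. Of 4 markers of steroid-making cells only Star was measured (a difference of 0.02), and the summed level of the 4 was 0.315 and 0.295.
The probes of the measured pair span exon junctions: that of Cyp17a1 at chr19:46742594-46743207 and that of Cyp19a1 at chr9:54020585-54021182, both on the minus strand of mm9.
Cyp17a1 probe: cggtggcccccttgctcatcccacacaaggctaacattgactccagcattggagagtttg
Cyp19a1 probe: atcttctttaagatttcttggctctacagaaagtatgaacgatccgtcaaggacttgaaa
They are shown so that the transcript stretch behind each value can be looked up.

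Of the 3 vitamin D P450s only Cyp2r1, which takes the first activating step, was measured, just above background at passage 5 (-3.14) and below it at passage 20, with a bound of -0.03. The retinoic acid hydroxylases Cyp26a1 and Cyp26b1 were well above background on neither array. Of 13 other retinoid genes 7 were measured, and among them the retinal dehydrogenase Aldh1a1 (0.69 and -0.49) was 2.27-fold lower at passage 20. Cyp20a1, whose substrate is unknown, had levels of 0.67 and -0.15, a difference of -0.82 ± 0.21. Tbxas1 and Ptgis, which have the P450 fold but other names, were above background on neither array.

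The genes that serve P450s were present throughout. All 9 electron donors and their partners were measured and lay within 2-fold, with a median of -0.10: Por had levels of 4.16 and 3.72, ferredoxin Fdx1 3.08 and 3.32, and cytochrome b5 (Cyb5a) 4.99 and 5.78. All 12 genes of heme synthesis and breakdown were measured, and Alas1, which sets the rate of heme synthesis, had levels of 2.76 and 3.28. Only Hmox1, the inducible heme oxygenase, passed 2-fold: its levels of 2.59 and 1.01 made it 2.99-fold lower at passage 20. The second Hmox1 probe was above background on neither array.

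Of 30 regulators of P450 genes 20 were measured and 2 were lower. Nr1h3, the oxysterol receptor LXRα, had levels of 0.08 and -2.40 and was 5.57-fold lower, and the partner receptor Rxrb was 2.21-fold lower (1.70 and 0.55), with its second probe at -2.22. The drug receptor PXR (Nr1i2) was just above background at passage 5 alone, with a bound of -0.13, and CAR (Nr1i3) was silent on both arrays. Nfe2l2 (4.18 and 4.75) and Srebf2 (5.37 and 5.27) lay within 2-fold by the probes used, but their probes disagreed: the differences ran from -0.94 to 0.65 over 3 probes of Nfe2l2 and from -0.11 to 1.84 over 4 of Srebf2. Over the union of partner, regulator and pathway lists, 76 of the 98 genes on the array were measured, 1 was higher (1.32%) and 7 were lower (9.21%), against 3.26% and 5.73% of all measured genes. The median was 0.02, against 0.07 for all measured genes.

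**Figure D5:**
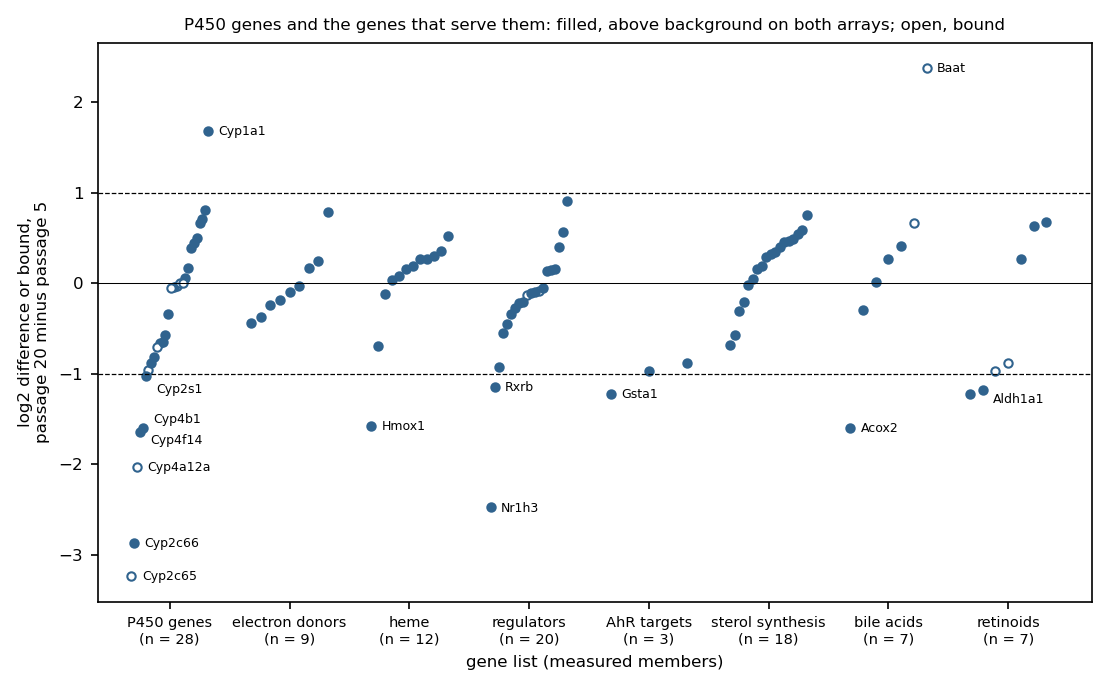
Log2 difference or bound, passage 20 minus passage 5 (vertical axis), for the measured P450 genes and the measured members of 7 related gene lists (horizontal axis); each point is a gene, sorted within its list, filled where both arrays were above background and open for a bound. Dashed lines mark 2-fold, genes past it that the text describes are named, and by the probes used no electron donor or cholesterol synthesis gene passes it.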

How the data were processed

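Cy3-labelled cRNA from total RNA was read on 1-colour Agilent mouse arrays (build mm9), both on 1 slide, per the labels' protocols and the file headers. The deposited intensity and its error come from Agilent Feature Extraction 10.7.3.1, with background subtraction and detrending, per the file headers; the raw mean and background intensity served an alternative. Deposited flag columns mark outliers, saturation and spots well above background. The authors' table of log2 values was read as quantile-normalized (largest gap between sorted columns 0.000609, r with the log2 signal 0.99987 and 0.99986; median 6.31 in each column) and is uncentred. It has no direction of its own; tool not given in the sources used here.

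Outlier and control spots were dropped, log2 signals averaged per probe and each array's 75th percentile subtracted. A gene took its probe with the highest mean. Of the member probes 109 were named by accession and 9 by symbol through RefSeq (GRCm38.p6). The lowest level above background was -3.32 at passage 5 and -3.17 at passage 20. Every measured member could be named; of related lists, genes past 2-fold, the brightest and a few preset ones, though 1 that the rule takes is not reported here. Members and lists were chosen with earlier results of these data known. Python 3.11.15, R 4.3.3 and limma 3.58.1 were used. The steps were tested on simulated data whose changed genes were bright and above background on both arrays. Bounds and changes in dim genes were not tested there. Repeat spots of 91 probes had a median SD of 0.054 and 0.058 log2, and the number of arrays limits the precision.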

Additional observations from a re-analysis of the deposited data

How the results depend on the processing

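The 6 lower members and Cyp1a1 kept their call in each of 11 other settings that gave them a value; Cyp2c65 and Cyp4a12a have none where both arrays must be above background, which leaves 4 lower. Quantile and loess normalization and the authors' values each added Cyp19a1 and Cyp2c40 (8 lower), spike-in scaling also Cyp20a1 (9), and median centring Cyp20a1 and Cyp4a12b (10). Among all calls the share of higher genes was 36.3%, but 14.6% with median centring, 19.2% with spike-in scaling and 24.3% with loess. For the pathway lists, median centring gave 13 lower and spike-in scaling 12, and requiring both arrays left 0 higher. With the mean over probes 2 members were higher, both of foreign compounds, Cyp2c37 being added (1.19), and Cyp4a10 had -0.71. Normexp correction brought Cyp2c65 to -2.02, Cyp2c66 to -1.74 and Cyp4a12a to -1.32.

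With no filter on dim probes all 82 members have a value, 7 are higher and 13 lower and the median turns to 0.15. Of these members 54 are above background on neither array. All named genes also have a median of 0.15 in this setting, with 1289 higher and 1287 lower. Leaving out the filter gave 3 higher and 6 lower among enzymes of foreign compounds and 2 higher among those of fatty acids. The pathway lists then had 5 higher and 11 lower. At 1.5-fold, 4 members were higher and 12 lower, against 1230 and 1387 of the 11799 measured named genes. By group these members were 3 and 5 for foreign compounds and 5 lower for fatty acids, and the pathway lists had 7 and 14. At 4-fold, 0 members were higher and 3 lower (0 higher for foreign compounds, 1 lower for fatty acids and 1 in the pathway lists). Among all measured named genes 59 were higher and 161 lower at 4-fold. Where no cause is named, the cause was not tested. No paired analysis was possible because each passage has 1 array. Signal over background limits the 54 silent members and the 8 members above background on 1 array.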

Other observations

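Several P450 genes of mouse liver are known to be predominant in 1 sex; these lists and the sex-linked genes were chosen after values had been seen. Of the male-predominant genes, Cyp4a12a was at least 4.10-fold lower at passage 20, Cyp4a12b had a bound of -0.70, Cyp2d9 differed by -0.57 and Cyp7b1 was above background on neither array. Of the female-predominant genes, Cyp2b9 differed by -0.34, Cyp2b13 by 0.71 and Cyp2c40 by -0.89, while Cyp2a4, Cyp3a41a, Cyp3a44 and Cyp3a16 were above background on neither array. The probes used for Cyp2d9, Cyp2b9, Cyp2b13 and Cyp2c40 also fit related genes. The second probe of each was above background on neither array. These values stand beside the differences in Xist, Ddx3y and Eif2s3y given above.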
